A study of Homo sapiens with 3 samples.

Results

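The long arm of chromosome 21 (21q) carried 3090 of the 331107 peaks that chromatin immunoprecipitation followed by sequencing (ChIP-seq) gave for Spindlin1 and C11orf84 in U2OS cells, a human osteosarcoma line. Members were all peaks of both lists with a summit on chromosome 21 at position 14300000 (hg19) or beyond, 1323 for Spindlin1 and 1767 for C11orf84. The arm was chosen by the overlap of the 2 lists, which was the lowest of all chromosomes, so overlap on the arm is given as a description and no test is made of it. The cells were untreated, and each antibody had 1 library beside an Input sample without antibody. No file of the Input was used here, and no spread between experiments can be given.

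Spindlin1 is a chromatin reader whose Tudor domains bind methylated tails of histone H3, and C11orf84, also called SPINDOC, is a protein known to bind it. A ChIP-seq peak is a place where more fragments of immunoprecipitated DNA piled up than the local background predicts. Chromosome 21 is a small acrocentric chromosome whose long arm is known to be uneven. Its centromere-side part is poor in genes and holds such long genes as NCAM2, a neural adhesion molecule, and APP, the precursor of amyloid beta. Its outward part holds the interferon receptor genes, the transcription factor RUNX1, the kinase DYRK1A and the adhesion molecule DSCAM, and near the telomere the collagen VI genes and the methyltransferase PRMT2. These genes are background. Peaks were not assigned to genes, since no hg19 annotation was used here, and the names gene-poor (14.3 to 32 Mb) and gene-rich (32 to 48.1 Mb) come from the rule and were not measured.

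An overlap of 1 bp or more with the C11orf84 list was found for 717 of 1323 Spindlin1 peaks of the arm (54.2%, 95% interval 51.5 to 56.9). In the other direction it was found for 697 of 1767 C11orf84 peaks (39.4%, 37.2 to 41.8). Over chromosomes 1 to 22 and X these shares were 69.7% and 57.6%. Peaks with such an overlap are called shared below. Intervals of shares are exact Clopper-Pearson intervals, and those of ratios and of differences between shares were derived from the limits of such intervals. They cover counting error only and take peaks as independent, which neighbouring peaks are not. In bases, 149.5 kb were common to both lists, 42.8% of the Spindlin1 and 29.0% of the C11orf84 territory of the arm, against 66.1% and 51.4% on the other chromosomes.

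At the start of the arm, the first Spindlin1 summit inside lay at 14338439 with a fold of 5.64. The first C11orf84 summit inside lay at 14339298 with a fold of 3.98, and its 21 fragments stood on a background of 4.36 times the lowest of its list, the highest on the arm for C11orf84. The last summits outside lay at 11181731 (fold 6.86) and 11186781 (fold 4.60), across the stretch around the centromere in which neither list had a peak. At the 32 Mb boundary, the last Spindlin1 summit before it was at 31997927 and the first after it at 32307852. The corresponding C11orf84 summits were at 31964909 and 32307587.

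Peaks of both proteins were crowded into the last part of the arm. The gene-poor section of 17.7 Mb held 174 Spindlin1 and 158 C11orf84 peaks, or 9.83 and 8.93 per Mb. The gene-rich section of 16.1 Mb held 1149 and 1609, or 71.4 and 99.9 per Mb, which is 7.26 times the gene-poor density for Spindlin1 and 11.2 times for C11orf84. With peaks at the lowest background only, these ratios were 17.0 and 26.9. That restriction kept 75.4% of Spindlin1 and 77.6% of C11orf84 peaks in the gene-rich section, but 32.2% and 32.3% in the gene-poor section. The larger ratios follow by arithmetic from these unequal shares of peaks kept, and the part of background in the density was not tested.

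**Figure D1:**
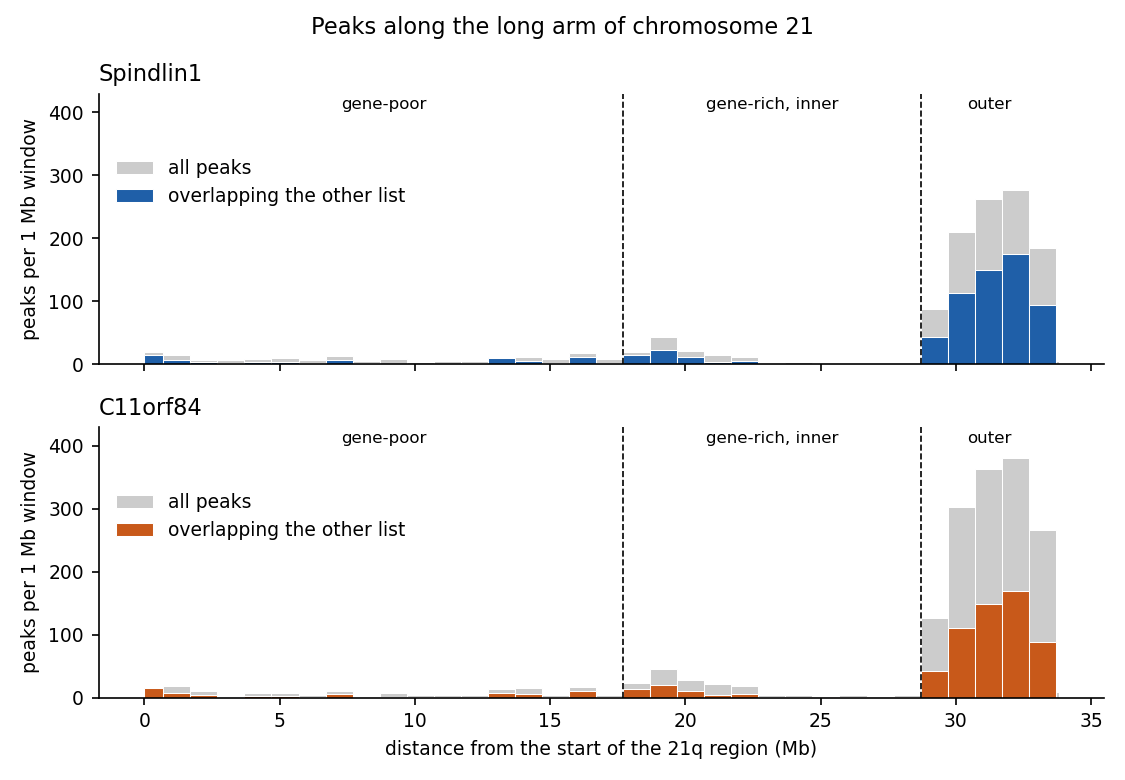
Peaks per 1 Mb window along 21q for Spindlin1 (top) and C11orf84 (bottom), against distance from the start of the region in Mb. Grey bars are all peaks, coloured bars those that overlap the other list, and dashed lines mark the 32 and 43 Mb limits. The first and last windows are shorter than 1 Mb. The 5 full windows beyond 43 Mb stand above all others in both lists, and the windows from 37 to 43 Mb are nearly empty.

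Within the gene-rich section the density was not even. The limit of 43 Mb used below to divide it was set after the windows had been seen. Its outer part, from 43 Mb to the end, made up 15.1% of the arm and held 1026 Spindlin1 peaks (77.6% of the arm's) and 1451 C11orf84 peaks (82.1%), at 201 and 285 per Mb. Its inner part, from 32 to 43 Mb, held only 123 and 158, at 11.2 and 14.4 per Mb. That is 1.14 and 1.61 times the density of the gene-poor section.

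The fullest windows of 1 Mb, by both lists together, were those starting at 46 Mb (276 Spindlin1 and 381 C11orf84 peaks), 45 Mb (263 and 363) and 44 Mb (210 and 303). The window at 41 Mb held 0 peaks of either list, and those at 39 and 40 Mb held 3 and 6 in all. From 37 to 43 Mb there were 12 Spindlin1 and 18 C11orf84 peaks, at 2 and 3 per Mb, which is sparser than the gene-poor section. The longest stretch of the arm without a peak of either list lay there, from 40818001 to 42539263 (1.72 Mb). The longest in the gene-poor section ran from 17504495 to 18381868 (877 kb). Peak-free stretches of at least 100 kb made up 71.4% of the gene-poor section, 59.8% of the inner part and 4.80% of the outer part. Assembly gaps and mappability inside these stretches were not examined.

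Peaks of the arm rested on few fragments. The number of fragments over each summit, called summit depth, was recovered from the deposited fold and p-value. It had a median of 10 in both lists on the arm (interquartile range 9 to 11 for Spindlin1 and 9 to 12 for C11orf84), against 11 and 12 on the other chromosomes. On the arm 72 Spindlin1 peaks (5.44%) and 99 C11orf84 peaks (5.60%) were at least 15 fragments deep, against 21.1% and 26.4% elsewhere. In both lists this was the lowest of 23 chromosomes. Chromosome X came next, with 7.23% and 8.25%. The copy number of 21q in these cells could not be examined without the Input, and its part in depth and background was not tested.

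Deep peaks were scarcest in the gene-rich section. In its outer part 2.63% of Spindlin1 and 2.76% of C11orf84 peaks reached 15 fragments, and the deepest of them had 20 and 19. In the gene-poor section the shares were 20.7% and 25.9%, with a deepest peak of 34 and 25 fragments. Without a cluster of 36 peaks beside the centromere, described below, the gene-poor shares were 14.9% and 20.4%, also under those of the other chromosomes. The 2 sections therefore differed in depth in the direction opposite to their density.

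The background of the peaks differed in the same way. The background is the number of fragments expected at the summit, and many peaks of each list stand at 1 lowest value, 0.949 fragments for Spindlin1 and 1.04 for C11orf84. On the arm 69.7% of Spindlin1 and 73.5% of C11orf84 peaks stood at it within 0.1%, against 48.01% and 49.1% elsewhere, the highest share of 23 chromosomes in both lists. In the gene-poor section this was 32.2% and 32.3%, and in the outer part 77.3% and 79.7%. A background of at least 2 times the lowest was found at 13.8% and 15.8% of gene-poor peaks and at 1.56% and 1.17% of outer ones. The part that background plays in the density and depth differences between the sections was not tested.

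**Figure D2:**
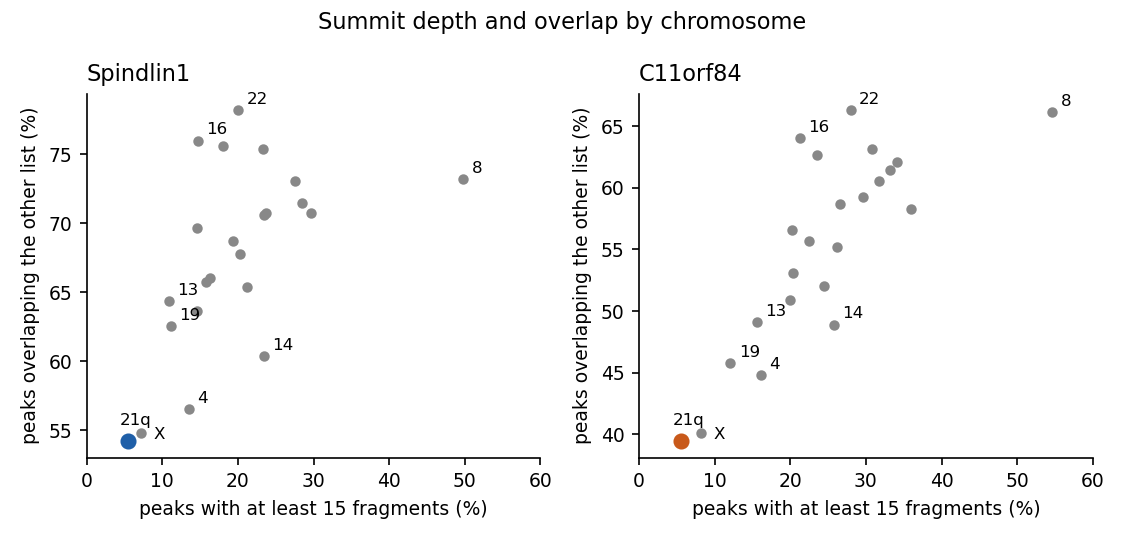
Share of peaks overlapping the other list (y axis, %) against the share of peaks with at least 15 fragments at the summit (x axis, %), 1 point per chromosome, with chromosome 21 entered as its long arm (large point). 21q lies lowest on both axes in both lists, at 5.44% and 54.2% for Spindlin1 and 5.60% and 39.4% for C11orf84, beside chromosome X. The y axes start above 0.

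Matching on depth made the gap in overlap smaller. Since deeper peaks overlapped more often on the other chromosomes, the share of the arm was set against the share it would have if, at each summit depth, its peaks overlapped as often as peaks elsewhere. For Spindlin1 this matched share was 63.0%, and the arm minus this share was -8.76 percentage points, against -15.7 points without matching. For C11orf84 the matched share was 48.4% and the difference -8.92 points, against -18.3 without matching. When chromosomes were ordered by this remainder, the arm had the lowest value of 23 for C11orf84 and the third lowest for Spindlin1, after chromosomes 4 (-9.83) and 14 (-9.48).

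Other ways of matching left a gap of like size or larger. The arm was chosen for its low overlap, so these gaps and ranks are a description, and their causes were not tested. Matching on depth together with class of background gave -9.25 points for Spindlin1 and -9.01 for C11orf84. Depth together with peak width gave -9.32 and -10.3, and depth together with the number of peaks in the same 1 Mb window gave -9.68 and -10.7. Chromosome 22, the other small acrocentric chromosome, stood above its matched share, by 8.74 points for Spindlin1 and 7.86 for C11orf84. Chromosome 13 (-2.57 and -4.22) and chromosome 19 (-2.59 and -5.11) stood below theirs by less than 21q. Chromosome X was close to the arm, with shares of 54.8% and 40.1% and remainders of -8.06 and -8.35 points. For C11orf84, chromosomes 4 (-8.10) and 14 (-7.84) were near it as well, so a low remainder was not particular to 21q.

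**Figure D3:**
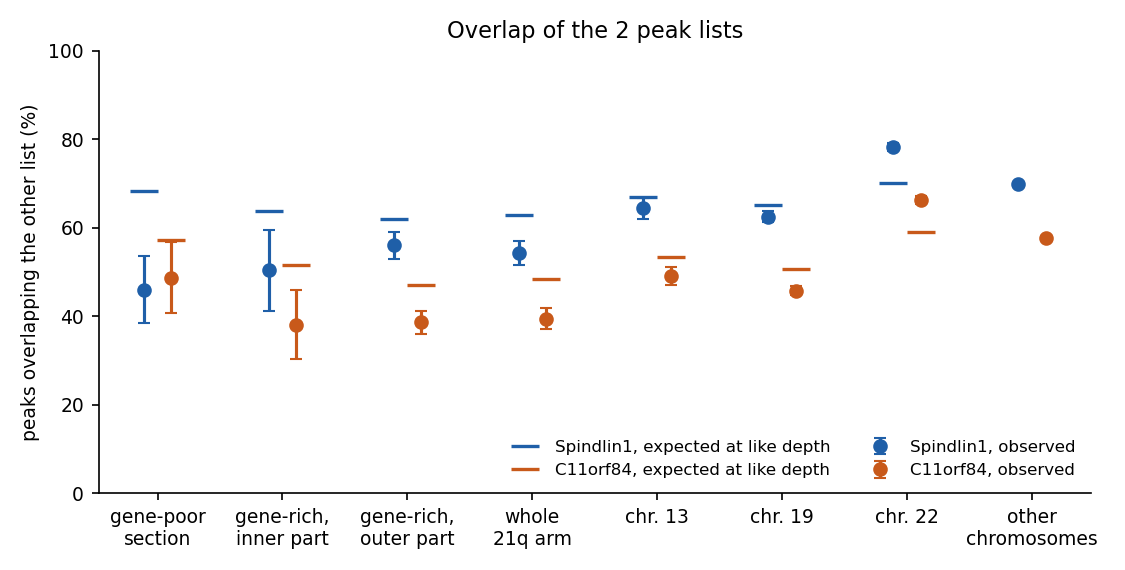
Share of peaks overlapping the other list (%, y axis) for the sections of 21q, the whole arm and 4 comparison sets. Points with bars are observed shares with exact 95% intervals, and short lines are the shares expected at like summit depth from all chromosomes but 21. For chromosomes 13, 19 and 22 this reference includes their own peaks. The remainders in the text leave each chromosome out of its own reference, so they differ slightly from the distances drawn. On the whole arm the observed shares of 54.2% and 39.4% lie below the expected 63.0% and 48.4%, whereas on chromosome 22 they lie above.

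Overlap was also followed by summit depth among peaks at the lowest background of the outer part, as a description only. For Spindlin1, peaks of up to 8 fragments were shared in 60.1% (113 of 188, interval 52.7 to 67.2), those of 9 to 11 in 54.0% (264 of 489, 49.5 to 58.5) and those of 12 to 14 in 61.5% (64 of 104, 51.5 to 70.9). On the other chromosomes the shares went from 53.8% (52.8 to 54.7) through 63.4% (62.9 to 63.9) to 77.7% (77.1 to 78.3). The outer part had the higher value for the shallowest peaks and the lower one in both other classes, and its values did not climb from class to class as those of the other chromosomes did.

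For C11orf84 the share in the outer part climbed with depth, from a value near that of the other chromosomes and by smaller steps up to 14 fragments. Its outer peaks were shared in 33.5% up to 8 fragments (interval 27.4 to 40.0), 38.1% at 9 to 11 (259 of 679, 34.5 to 41.9) and 41.2% at 12 to 14 (94 of 228, 34.8 to 47.9). Elsewhere the shares were 34.5% (33.6 to 35.5), 45.2% (44.7 to 45.7) and 62.5% (61.9 to 63.1). At 15 or more fragments the outer part had 12 Spindlin1 and 23 C11orf84 peaks at the lowest background, with 66.7% (34.9 to 90.1) and 60.9% (38.5 to 80.3) shared, against 89.9% (89.2 to 90.6) and 81.2% (80.5 to 81.9) elsewhere. On chromosome 22, the Spindlin1 share rose over the same classes of depth from 70.0% to 92.3%.

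**Figure D4:**
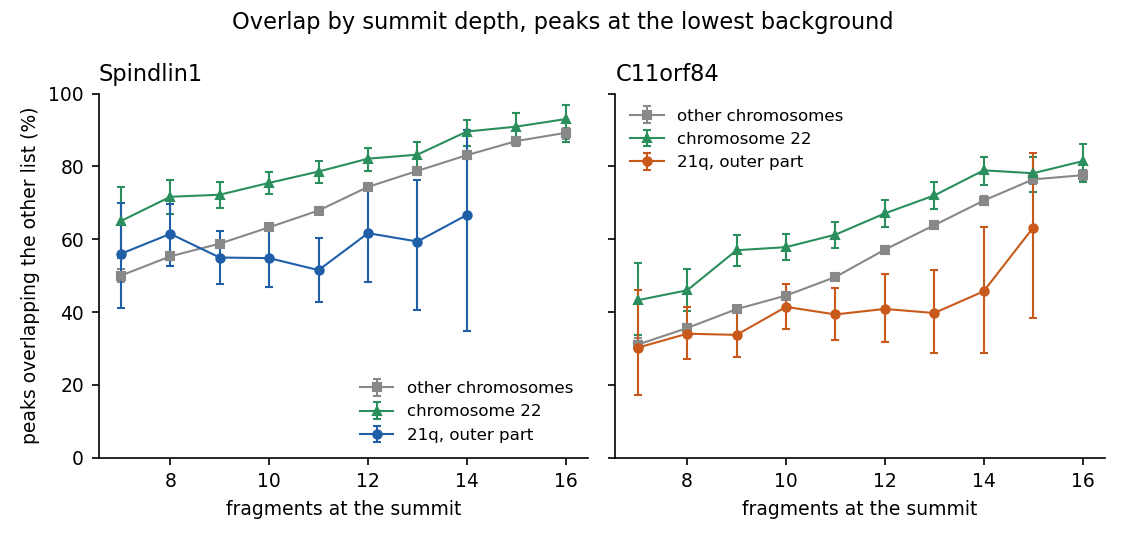
Share of peaks overlapping the other list (%, y axis) by the number of fragments at the summit (x axis), for peaks at the lowest background in the outer part of 21q, on chromosome 22 and on the other chromosomes. Points are drawn where at least 10 peaks were found, with exact 95% intervals. The 21q line stays near 51.5 to 66.7% for Spindlin1, while the line of the other chromosomes climbs from 50.02% at 7 to 83.1% at 14 fragments.

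The correlation between the summit depths of shared pairs was lower in the outer part, while their ratios were not farther apart. Across 575 pairs there, Pearson's r between the depths of both lists was 0.237 and Spearman's rho 0.179, against 0.708 and 0.664 across 80 pairs of the gene-poor section. Across 6736 pairs of chromosome 22 they were 0.482 and 0.399. These values are across peaks that share 2 libraries, are not independent and span different ranges of depth, the outer part the narrowest, so they are given without a test. The C11orf84 depth over the Spindlin1 depth had a median of 1 (interquartile range 0.889 to 1.25) in outer pairs, 1.05 (0.907 to 1.28) in gene-poor pairs and 1.09 (0.917 to 1.30) on the other chromosomes. The C11orf84 summit was the deeper of the pair in 49.4% of outer pairs and in 57.5% of pairs on the other chromosomes.

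Peaks of the outer part that did not overlap lay near one another. Unshared Spindlin1 peaks there had a median distance of 431 bp to the nearest C11orf84 peak, and 69.4% of the 451 were within 1 kb. On the other chromosomes together the median was 1186 bp and 47.0% were within 1 kb. Chromosome 22 was close to the outer part, with a median of 513.5 bp and 65.1% within 1 kb. With distance up to 1 kb counted together with overlap, 86.5% of outer Spindlin1 peaks had a C11orf84 peak at or beside them, against 84.01% on the other chromosomes. For C11orf84 the share within 1 kb in the outer part was 70.8%, below the 77.0% elsewhere, and within 5 kb it was 94.3%, above the 89.1% elsewhere. High density by itself brings neighbours close, and its part was not tested. Where outer peaks did overlap, summits lay farther apart than elsewhere, at a median of 89 bp from a Spindlin1 summit to the nearest C11orf84 summit against 58 bp.

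**Figure D5:**
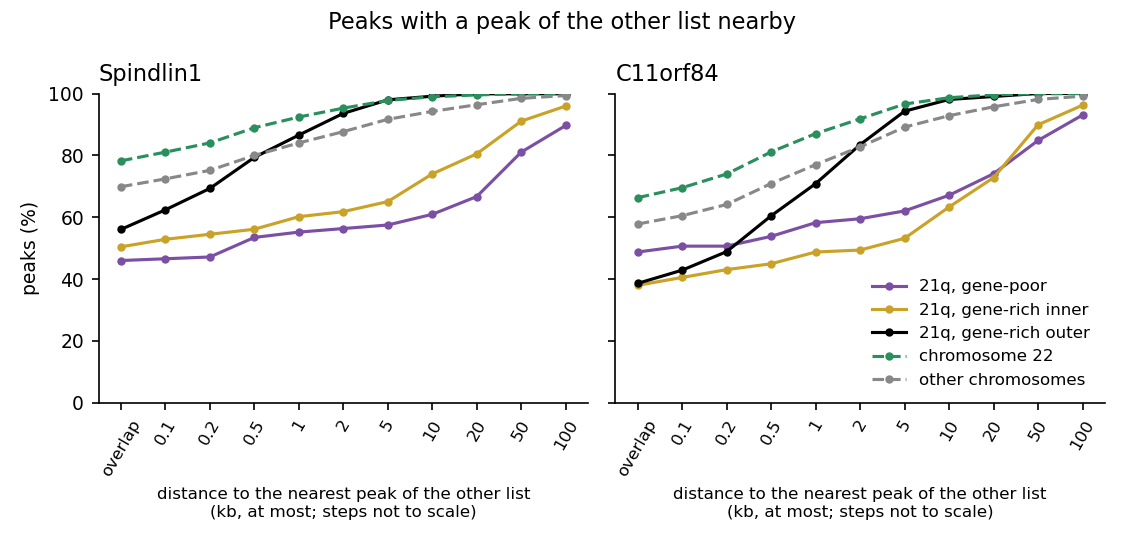
Share of Spindlin1 (left) and C11orf84 (right) peaks (%, y axis) with a peak of the other list overlapping or within a given distance (kb, x axis, steps not to scale), for 3 parts of 21q, chromosome 22 and the other chromosomes. The outer part of 21q starts at 56.0% and 38.6%, below the other chromosomes, and passes them by 5 kb, at 98.0% and 94.3%. The gene-poor section rises slowest up to 5 kb for Spindlin1.

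Windows of like crowding elsewhere gave a wide range of overlap. The 5 full windows beyond 43 Mb had 88 to 276 Spindlin1 peaks and shares of 48.9 to 63.4%, with a median of 53.8%. The 398 windows of other chromosomes with Spindlin1 numbers in that range had a median share of 70.4% (interquartile range 64.9 to 75.2%), and 19 of them (4.77%) were at or below 53.8%. For C11orf84 the 5 windows had 127 to 381 peaks and a median share of 36.6%, and 20 of 356 windows elsewhere (5.62%) were as low, with a median of 59.6% over all of them. Chromosome 19 supplied 24 of the 83 Spindlin1 and 20 of the 53 C11orf84 windows that were no higher than the highest of the 5. The arm was chosen for its low overlap, so these percentages of windows are a description and not a test. The windows were not matched on summit depth. Its median over the windows elsewhere was 11 fragments for Spindlin1 and 12 for C11orf84, against 10 in each of the 5.

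The C11orf84 list was longer than the Spindlin1 list on the arm by a factor of 1.34 (interval 1.24 to 1.44), against 1.16 on the other chromosomes. Of 23 chromosomes only X had a higher ratio (1.37), and chromosome 19 came just below (1.33). The excess lay in the gene-rich section, with 1.40 (1.30 to 1.51) C11orf84 peaks for each Spindlin1 peak. In the gene-poor section the ratio was 0.908 (0.727 to 1.13). Where 1 list is much longer, its shared fraction is bounded by the length of the other, so the shares of the 2 lists are not free of this ratio.

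The 2 sections differed in overlap in opposite directions for the 2 proteins, though this contrast was not stable. For Spindlin1, 46.0% (38.4 to 53.7) of gene-poor and 55.4% (52.5 to 58.3) of gene-rich peaks were shared, a difference of 9.46 points. For C11orf84, 48.7% (40.7 to 56.8) of gene-poor and 38.5% (36.1 to 41.0) of gene-rich peaks were shared, a difference of -10.2 points (interval -18.6 to -1.82). Without the peaks below 16 Mb the C11orf84 difference was -5.37 points (-14.9 to 3.89), and with the limit at 43 Mb it was -4.76 (-11.0 to 1.34). When both lists were restricted to a −log10 q of 5 or more, the Spindlin1 difference turned to -10.8 points, and with only peaks at the lowest background the C11orf84 difference turned to 0.726. With at least 50% of both intervals in common, the Spindlin1 shares of the sections were nearly the same, at 29.9% and 30.3%.

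The gene-poor section held many peaks far from any peak of the other list. With no peak of the other list within 5 kb stood 74 of its 174 Spindlin1 peaks (42.5%, 35.1 to 50.2) and 60 of its 158 C11orf84 peaks (38.0%, 30.4 to 46.0). Over chromosomes 1 to 22 and X this held for 8.36% and 10.9% of peaks. The inner part was alike, with 35.0% and 46.8%, and the outer part had 2.05% (1.27 to 3.11) and 5.72% (4.58 to 7.04). Low density by itself leaves neighbours farther apart, and its part was not tested. Within their own list, 42.0% of gene-poor Spindlin1 and 44.9% of gene-poor C11orf84 peaks had a neighbour within 5 kb. In the outer part this held for 92.0% and 95.9%. At matched summit depth the gene-poor share of overlap minus that of other chromosomes was -22.4 points for Spindlin1 and -8.43 for C11orf84.

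A tight cluster of peaks lay at the centromere end of the gene-poor section. Its 20 Spindlin1 and 16 C11orf84 peaks spanned 14338392 to 14368500 (30.1 kb) and were followed by a stretch of 0.699 Mb without a peak. Among them 15 Spindlin1 peaks (75%) and all 16 C11orf84 peaks were shared. Their summit depth had a median of 16.5 and 16 fragments and their background a median of 2.07 and 1.91 times the lowest, and 50% of peaks in both lists stood on a background of at least 2 times the lowest. Without the cluster, the gene-poor shares were 42.2% and 42.96%.

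The same cluster held the leading peaks of the section. The highest Spindlin1 fold of the whole arm was 11.8 at 14365748 to 14366060, with 22 fragments over the lowest background, rank 289 in its list. Its C11orf84 counterpart reached a fold of 6.68 with 17 fragments. The next Spindlin1 peak (14342458 to 14342764) had a fold of 9.92 at 20 fragments and a C11orf84 counterpart of 7.20 at 15. The highest C11orf84 fold of the arm, 9.90 at 21 fragments, lay at 14366513 to 14367640, overlapping the widest Spindlin1 peak of the arm (14366753 to 14368500, 1748 bp).

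Outside the cluster, both leading gene-poor regions were shared by the 2 proteins. From 27107694 to 27107992 the Spindlin1 fold was 8.52 with 18 fragments, and the C11orf84 fold was 8.96 with 20 fragments and a summit at the same base, 27107851. From 30671059 to 30671398 the C11orf84 fold was 9.19 with 24 fragments, and the overlapping Spindlin1 peak reached 7.80 with 19. The background at both regions was above the lowest, at 1.30 times for both lists in the first and 1.66 and 1.65 times in the second.

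The leading peaks of the gene-rich section were shared as well. The highest Spindlin1 fold was 10.8 at 45286188 to 45286404, with 20 fragments, where C11orf84 had 6.38 at 12 fragments. Spindlin1 peaks at 46712449 to 46712794 and 46859368 to 46859732 each reached a fold of 10.3 with 19 fragments, and their C11orf84 counterparts had 7.85 at 15 and 7.36 at 14. In the C11orf84 list the highest fold was 9.33 at 18 fragments, found at 32307438 to 32307912 and at 33983740 to 33984878. Spindlin1 reached 8 fragments at the former. The latter, 1139 bp wide, overlapped 3 Spindlin1 peaks of 10 to 13 fragments. The widest of the arm in that list (46976078 to 46977377, 1300 bp) overlapped 4. These peaks were picked for being high in 1 list, so a lower value in the other is partly set by the choice.

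Peaks without a partner within 5 kb were also ranked by fold. They are a part of each section and list, so their highest fold cannot exceed the highest of all. The highest of them in the gene-rich section was a C11orf84 peak at 47733214 to 47733475. It had a fold of 8.84 at 17 fragments and lay 9.11 kb from the nearest Spindlin1 peak. The most remote of the named Spindlin1 peaks, at 36783831 to 36784051 (fold 8.21, 15 fragments), was 374 kb from a C11orf84 peak. In the gene-poor section the highest such Spindlin1 peaks (18954475 to 18954698, 23493011 to 23493235 and 23811246 to 23811437) each stood at a fold of 7.70 with 14 fragments, over the lowest background. The highest such C11orf84 peak there, from 28711034 to 28711422, reached a fold of 7.41 with 15 fragments and lay 141 kb from a Spindlin1 peak. Where a list has no peak, no call was made at this depth, which is no measure of how much protein was bound.

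Overlap also varied from window to window. Among windows with at least 20 peaks of the list, the highest Spindlin1 shares were 75% at 14 Mb (the cluster), 70.0% at 32 Mb (14 of 20) and 63.4% at 46 Mb (175 of 276), and the lowest were 48.9% at 43 Mb, 51.1% at 47 Mb and 52.3% at 33 Mb. For C11orf84 the highest were 58.3% at 32 Mb, 45.7% at 33 Mb and 44.4% at 46 Mb, and the lowest were 18.2% at 35 Mb (4 of 22), 33.0% at 47 Mb and 33.9% at 43 Mb. In both lists the shares at 45 and 46 Mb were higher than those at 43 and 47 Mb, but most of their intervals overlapped. For Spindlin1 these were 50.8 to 63.1 at 45 Mb and 38.1 to 59.8 at 43 Mb. Only those of C11orf84 at 46 Mb (39.3 to 49.5) and 47 Mb (27.4 to 38.95) were apart.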

How the data were processed

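Peak lists of 1 Spindlin1 and 1 C11orf84 library were used. Reads were aligned with Bowtie 1.2.2 to hg19, per the submitters' processing notes, while the caller of the peaks, its threshold and its control are not stated in these sources. The authors' deposited fold is the ratio of summit to background with 1 added to both terms, beside −log10 p-values and −log10 q-values of the summit. The deposited score repeats the −log10 q-value times 10, cut to a whole number, in 100% of peaks, and no result uses it. Depth k and background λ of each summit solve fold = (k + 1)/(λ + 1) and p = Poisson probability of more than k. The largest error in −log10 p was 0.000174 and 0.000148. Sections were compared as counts, and matched shares used depth classes with 30 or more fragments as 1 class. Positions are printed counting from 1. Total read numbers are unknown, so depth is given per summit only.

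Named peaks were, by section and list, the 3 highest by fold, the 3 highest by fold among peaks farther than 5 kb from the other list, and the widest. The text gives the leading ones. Windows were ranked by number and by share. Gene lists and peak sequences had been planned for an hg19 reference and were not used here. With 1 library per antibody no p-value is given. The members, sections and comparisons were chosen with earlier results of these data known. Alternatives changed the overlap rule, the q threshold, the background, the section limits and the matching. On simulated data 100% of 5000 depths and 100% of 2000 overlaps were recovered. Intervals came from SciPy 1.17.1 and tables from pandas 2.3.3 under Python 3.11.15.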

Additional observations from a re-analysis of the deposited data

Results flagged for a closer look

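The difference in shared percentage between the gene-rich and the gene-poor section had opposite signs in the 2 lists, 9.46 points for Spindlin1 and -10.2 points for C11orf84. The difference between the 2 values was not tested, since each antibody had 1 library, and either sign turned under 1 alternative.

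Chromosome 21 also carried peaks before the start of the long arm, 125 for Spindlin1 and 91 for C11orf84, which entered no comparison. Their background had a median of 1.71 and 1.64 times the lowest, and 45.6% and 64.8% of them were shared.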

How the results depend on the processing

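Shares of the whole arm fell under stricter rules. They were 41.3% for Spindlin1 and 26.9% for C11orf84 when both lists were restricted to a −log10 q of 5 or more, 30.2% and 22.6% with at least 50% of both intervals in common, and 43.4% and 32.4% when summits had to lie within 200 bp. Shares over chromosomes 1 to 22 and X were also lower under the 2 stricter overlap rules. They were 47.5% and 41.1% with the 50% rule and 55.1% and 47.5% with the 200 bp rule, against 69.7% and 57.6%. Without the outer part the shares of the arm were 47.8% and 43.4%. The difference between sections was the least stable result. Under the same q restriction it was -10.8 points for Spindlin1 and -22.6 for C11orf84, with peaks at the lowest background only 22.1 and 0.726, and for Spindlin1 with at least 50% of both intervals in common 0.402. The causes were not tested. The ratio of densities was 17.0 for Spindlin1 and 26.9 for C11orf84 at the lowest background only, 19.4 and 25.8 with the limit at 43 Mb, and 9.43 for C11orf84 with the limit at 34 Mb. The gap at matched summit depth was -12.0 points for C11orf84 when fold in 10 classes was matched in place of depth. The limit at 43 Mb, the removal of the outer part or of the centromere cluster and the matching on peaks per window were chosen after the data were seen. All other alternatives stayed within the 95% interval of the main value. No paired analysis was possible because each antibody had 1 library.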

Other observations

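The last 0.1 Mb of the arm, from 48 Mb, held 5 Spindlin1 and 10 C11orf84 peaks. None of them was shared. A count of 0 allows, taken as 3 counts of the total, a share of up to 60% and 30%, and the exact upper limits are 52.2% and 30.8%, both for counting error only. The nearest pair lay 166 bp apart. Their summits had 7 to 14 and 8 to 13 fragments.

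The C11orf84 excess in the gene-rich section was larger at a −log10 q of at least 7 than among all its peaks. There the gene-rich section held 367 C11orf84 and 184 Spindlin1 peaks, a ratio of 1.99 (interval 1.67 to 2.39). On the other chromosomes the ratio also rose, from 1.16 among all peaks to 1.34. In the gene-poor section the ratio at this threshold was 1.125 (0.748 to 1.70). At a −log10 q of at least 10 the numbers were 31 and 18, a ratio of 1.72 with an interval of 0.934 to 3.27, against 1.54 elsewhere. The q-values of the lists were computed separately by the authors, so a threshold does not mean the same in both.

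The stretch from 32 to 37 Mb was denser than the gene-poor section, at 22.2 Spindlin1 and 28 C11orf84 peaks per Mb, and 52.3% and 40.0% of its peaks were shared. From 37 to 43 Mb, 4 of 12 and 4 of 18 were.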
